A study of Mus musculus with 6 samples.

Results

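The Dlx and Msx genes are a family of homeobox transcription factor genes, and all 8 mouse members of interest here (Dlx1 to Dlx6, Msx1 and Msx2) were followed by name through RNA-seq counts of 55401 genes. They were chosen by gene symbol and matched to Ensembl identifiers. Of the 8 members, 6 had at least 1 count, as did 29043 of all genes. The cells were C3H10T1/2, a mouse mesenchymal line that can be driven toward bone, fat or muscle in culture. Cells carrying a control hairpin (shControl), a hairpin against Nfib (shNFIB) or a hairpin against Kmt2a, which encodes MLL1 (shMLL1), were each sequenced once untreated at day 0 and once at day 7. The day 7 cells had been kept in osteogenic medium, with dexamethasone at 0.1 µM, β-glycerophosphate at 20 mM and ascorbic acid 2-phosphate at 100 µg/ml. All cells carried a hairpin, and each knockdown rests on 1 established line. Each of the 6 conditions was represented by a single library, so no replicate check exists for a comparison of 2 libraries, and the intervals given cover counting error only.

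Dlx proteins bind DNA through a homeodomain and act in limb, jaw and forebrain development. Dlx5 is known as an activator of osteoblast genes downstream of BMP signalling, and Msx proteins often act as repressors at related sites. The Dlx genes lie in convergently transcribed pairs, and several pairs have a noncoding RNA on the opposite strand.

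Library totals ran from 21608680 to 34774066 counts. The hairpin targets were lower in their own lines. Nfib was at 116 CPM (the count scaled to the library size after trimmed mean of M-values, TMM, normalization) in shControl and 35.3 in shNFIB at day 0, and at 83.5 and 8.15 at day 7. Kmt2a was at 74.7 and 30.9 CPM in shControl and shMLL1 at day 0, and at 66.3 and 34.8 at day 7. In shMLL1, Nfib was at 65.5 CPM at day 0 and 72.7 at day 7. Of the 10 mesenchymal markers, Nt5e was at or near the floor of 3 counts in every library, and the summed CPM of the list ran from 5320 to 16000. Neuronal and skeletal muscle markers were at the floor throughout. Of the 4 epithelial markers Epcam had 0 counts in every library, while Cdh1, which encodes E-cadherin, had 286, 183 and 237 counts at day 0 and 34, 6 and 14 at day 7, in the order shControl, shNFIB, shMLL1. Of the 3 neural crest markers Sox10 and Foxd3 had 0 counts and Tfap2a had 225 to 955. The 4 adipocyte markers summed to 15.6 to 88.4 CPM, with the highest sum in shNFIB on each day. Among them Plin1, a lipid droplet gene, had 0 counts in every day 0 library and 472, 9 and 28 at day 7. Pparg, the adipocyte nuclear receptor, ranged from 12 to 84.2 CPM, Fabp4 had 108 to 148 counts, and Adipoq had at most 1. The part of any of these cell types in the results was not tested. In bulk RNA, fewer cells of a type and less RNA per cell cannot be told apart.

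The members share the homeobox, and the stretch of 30 bases that encodes part of its DNA-contacting recognition helix is shown for 4 of them to let the reader see how near these copies are. Sequences are from the GENCODE M21 transcripts, and capitals mark bases that differ from Dlx5.
Dlx5: caggtgaaaatctggtttcagaacaaaaga
Dlx6: caggtgaaGatAtggtttcagaaTaaGCgC
Dlx1: caggtCaaGatAtggttCcagaacaaaCgC
Dlx4: caggtAaaGatctggtttcagaacaaaCgC
Dlx4 differed from Dlx5 at 4 of these bases, and Dlx1 and Dlx6 at 6 each. The longest stretch shared by any pair of members' transcripts was 44 bases, between Dlx6 and Msx2, which is under the read length of 100 bases.

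Dlx5 (chr6:6877805-6882085, minus strand, GRCm38) was the member whose level ranged most widely. It had 408 counts in shControl, 140 in shNFIB and 122 in shMLL1 at day 0. At day 7 the counts were 1601, 109 and 388 in the same order of lines. Control cells thus gave the highest level on both days, and shNFIB at day 7 was the lowest on the CPM scale. In CPM these were 12.8, 4.43 and 4.04 at day 0, and 52.5, 3.69 and 15.9 at day 7.

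**Figure D1:**
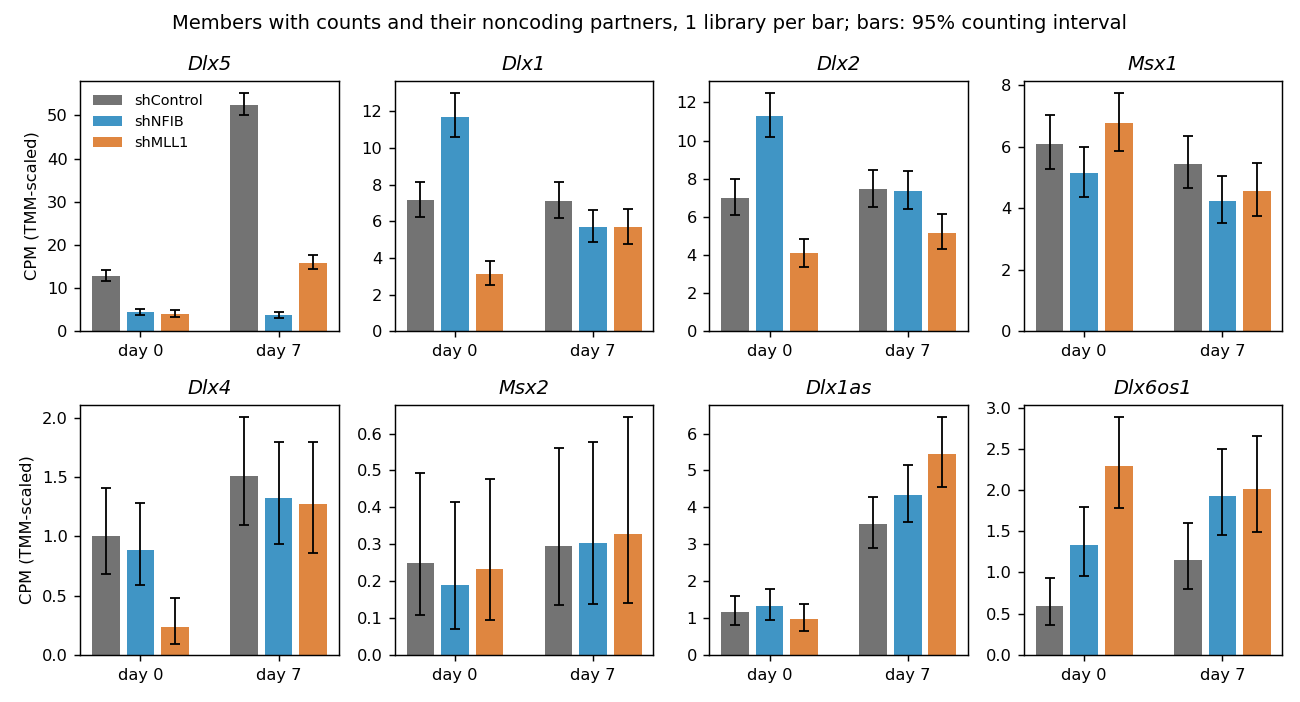
CPM of the 6 members with counts and 2 noncoding partners in the 3 lines at day 0 and day 7, with 1 library per bar and 95% counting intervals. Dlx5 reached 52.5 CPM in shControl at day 7 and 3.69 in shNFIB, while Msx1 stayed between 4.23 and 6.76.

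From day 0 to day 7, the log2 fold change of Dlx5 was 2.04 in shControl (95% counting interval 1.88 to 2.20), 1.98 in shMLL1 (1.68 to 2.28) and -0.27 in shNFIB (-0.64 to 0.11). The shMLL1 and shControl responses differed by -0.07 (-0.40 to 0.27), although the shMLL1 level was lower on both days. The shNFIB response minus the shControl response was -2.31 (-2.70 to -1.91). Dlx5 was the only 1 of the 5 members tested to pass 2-fold in shControl, where 23.0% of all genes passed 2-fold higher and 14.9% lower.

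Against shControl, Dlx5 was lower by more than 2-fold in both knockdowns on both days. In shNFIB the log2 fold change was -1.53 (-1.81 to -1.25) at day 0 and -3.83 (-4.13 to -3.55) at day 7. In shMLL1 it was -1.66 (-1.96 to -1.37) at day 0 and -1.72 (-1.89 to -1.56) at day 7. At day 7 Dlx5 was the gene of rank 230 from the lowest of 16716 in shNFIB, and of rank 547 of 16898 in shMLL1.

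**Figure D2:**
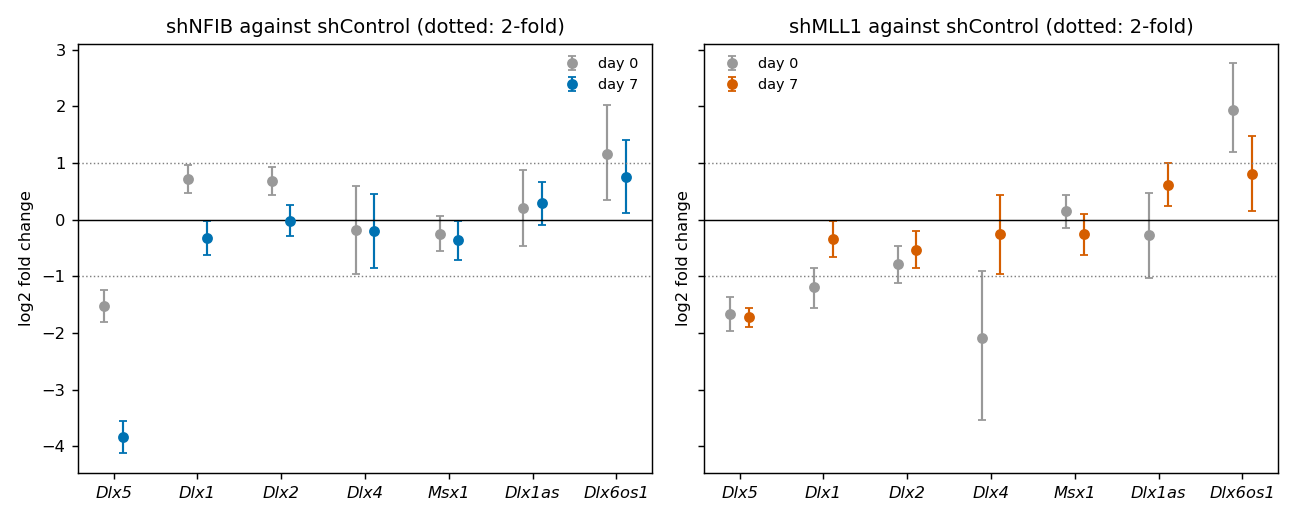
Log2 fold change of each knockdown against shControl at day 0 and day 7 for 5 members and 2 noncoding partners, with 95% counting intervals and dotted lines at 2-fold. Dlx5 lies below the lower line in all 4 comparisons, at -3.83 in shNFIB at day 7.

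When line and day were fitted together in all 6 libraries (edgeR quasi-likelihood, Benjamini-Hochberg), 0 of the 5 members kept by the filter were called for day, where 34.7% of 15741 genes were. None was called for shNFIB, where 0.292% were, or for shMLL1, where 0.0318% were. Dlx5 alone had an unadjusted edgeR p under 0.05 in each of the 3 comparisons, that is 1 member in each. Of the 15741 genes, 7468 had such a p for day, 1918 for shNFIB and 1416 for shMLL1. DESeq2 called 1, 1 and 0 members for day, shNFIB and shMLL1, beside 6345, 611 and 410 of all genes. The day effect of Dlx5 was 1.31 ± 0.47 (log2, SE, adjusted p = 0.0667 in edgeR and 0.0187 in DESeq2). It was 2.00 ± 0.29 without the 2 shNFIB libraries (edgeR adjusted p = 0.001), 0.86 ± 0.58 without those of shControl (0.341) and 0.99 ± 0.49 without those of shMLL1 (0.155). Its shNFIB effect was -2.60 ± 0.58 (adjusted p = 0.16 in edgeR and 0.000421 in DESeq2), and its shMLL1 effect was -1.66 ± 0.54 (adjusted p = 0.412 and 0.0862).

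Dlx6 lies beside Dlx5, and Dlx6 had 0 counts in every library, for which the exact 95% upper limit was 0.115 to 0.151 CPM. Dlx6os1 (ENSMUSG00000090063), a noncoding RNA across Dlx6, was counted in every library. It had 19 counts in shControl, 42 in shNFIB and 69 in shMLL1 at day 0, and 35, 57 and 49 at day 7. It was thus lowest in shControl on both days, where Dlx5 was highest. Relative to shControl at day 0, the log2 fold change of Dlx6os1 was 1.16 (0.35 to 2.03) with the Nfib hairpin. With the Kmt2a hairpin it was 1.94 (1.19 to 2.76). In these comparisons 7.26% and 11.0% of all genes were more than 2-fold higher. At day 7 the log2 fold change was 0.746 (0.116 to 1.399) with the Nfib hairpin and 0.804 (0.151 to 1.475) with the Kmt2a hairpin, both under 2-fold. Over both days the shNFIB effect of Dlx6os1 was 0.88 ± 0.50 and its shMLL1 effect 1.42 ± 0.51 (edgeR adjusted p = 0.533 and 0.474). The coding neighbours of Dlx5 within 500 kb, Sem1 and Sdhaf3, did not pass 2-fold in any of the 7 comparisons of libraries.

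Dlx1 and Dlx2 lie side by side on chromosome 2 (chr2:71528113-71533981, plus strand, and chr2:71543408-71546754, minus strand). Dlx1 had 228 counts in shControl, 370 in shNFIB and 94 in shMLL1 at day 0, and 217, 168 and 138 at day 7. Dlx2 had 224, 357 and 123 at day 0, and 227, 217 and 126 at day 7. In both genes shNFIB at day 0 was the highest library and shMLL1 at day 0 the lowest on the CPM scale. Dlx1 took between 43.3% and 52.3% of the counts of the pair.

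At day 0 the log2 fold change of shNFIB against shControl was 0.72 (0.47 to 0.96) for Dlx1 and 0.69 (0.44 to 0.94) for Dlx2. Neither passed 2-fold, where 7.26% of genes passed higher and 6.32% lower. In shMLL1 at day 0, Dlx1 was at -1.20 (-1.56 to -0.84) and Dlx2 at -0.78 (-1.11 to -0.46). Of the 5 members tested there, Dlx1, Dlx4 and Dlx5 were more than 2-fold lower, where 9.34% of genes were lower and 11.0% higher. At day 7 Dlx5 was the only 1 of 5 past 2-fold in either knockdown. The shares of all genes were 13.2% lower and 8.07% higher in shNFIB, and 6.95% lower and 8.59% higher in shMLL1.

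The day 7 responses of Dlx1 ran in opposite directions in the knockdowns. The log2 fold change was -1.04 (-1.32 to -0.78) in shNFIB, 0.86 (0.47 to 1.25) in shMLL1 and -0.004 (-0.28 to 0.27) in shControl. The knockdowns differed at day 0, at 11.7 CPM in shNFIB and 3.11 in shMLL1, and were close at day 7, at 5.68 and 5.66. Dlx1 was the only member past 2-fold in shNFIB, where 16.5% of genes were higher and 13.9% lower. That call was lost with scaling by library size alone, at -0.95, and with counts thinned to the smallest library, at -0.90. In shMLL1, Dlx4 and Dlx5 were more than 2-fold higher, where 25.8% of genes were higher and 19.8% lower.

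**Figure D3:**
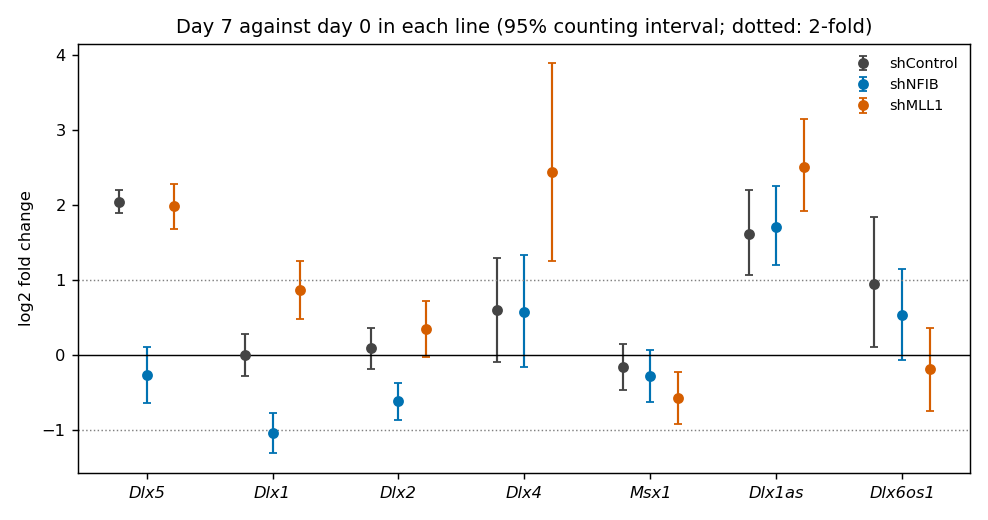
Log2 fold change of day 7 against day 0 in each line for 5 members and 2 noncoding partners, with 95% counting intervals and dotted lines at 2-fold. Dlx5 lies near 2 in shControl and shMLL1 and at -0.27 in shNFIB, and Dlx1as lies above 1 in all 3 lines.

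Dlx1as, a noncoding RNA on the strand opposite Dlx1, had 37, 42 and 29 counts at day 0 and 108, 128 and 133 at day 7 in shControl, shNFIB and shMLL1. All 3 day 7 libraries were above all 3 day 0 libraries. It rose over the 3 lines by 1.94 ± 0.36 (log2, SE, edgeR adjusted p = 0.00877, DESeq2 5.56e-05). Its gene body overlaps that of Dlx1 by 5869 bases, and 335 of its 1630 exon bases are shared with Dlx1. The gene body of Dlx1as also overlaps that of Metap1d on the other strand by 8741 bases, with 0 shared exon bases. Metap1d rose by 1.07 ± 0.21 (edgeR adjusted p = 0.0101). Genes wholly under exons of the other strand were almost never counted here (2 of 439 had at least 10 counts). The counts thus behave as made without strand. Reads of Dlx1as and Metap1d introns, or of exon bases shared with Dlx1, then cannot be told apart.

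The proximal sequence of Dlx2 and of Msx1 is shown because NFI proteins, the family of Nfib, bind the motif TTGGC. The 250 bases before each start come from RefSeq on GRCm38.p6, and 4 of the 8 members (Dlx1, Dlx2, Msx1 and Msx2) had an entry. Capitals mark TTGGC.
Dlx2, chr2:71546755-71547004, minus strand: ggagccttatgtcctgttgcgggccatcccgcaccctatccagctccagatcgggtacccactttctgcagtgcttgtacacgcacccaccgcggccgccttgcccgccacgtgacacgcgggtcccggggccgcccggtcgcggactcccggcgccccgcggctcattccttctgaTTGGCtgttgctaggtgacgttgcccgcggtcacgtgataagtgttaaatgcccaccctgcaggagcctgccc
Msx1, chr5:37824586-37824835, minus strand: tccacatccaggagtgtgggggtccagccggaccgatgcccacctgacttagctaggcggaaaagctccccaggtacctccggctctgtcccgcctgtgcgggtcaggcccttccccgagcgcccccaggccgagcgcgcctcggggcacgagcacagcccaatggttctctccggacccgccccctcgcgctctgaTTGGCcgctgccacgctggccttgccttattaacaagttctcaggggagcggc
The motif was searched on both strands of windows of 300 bases, which add 50 bases after the start. Dlx1 held 0 copies and Dlx2, Msx1 and Msx2 held 1 each, and 46.7% of 32851 promoters of that length held it. Each copy overlapped an ATTGG motif.

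Dlx3 (chr11:95120119-95125296) had 0 counts in every library, and its neighbour Dlx4 (chr11:95140447-95146263) was low. Dlx4 had 32, 28 and 7 counts at day 0 and 46, 39 and 31 at day 7 in shControl, shNFIB and shMLL1. The shMLL1 library at day 0 was the lowest, at 0.232 CPM, and the others were between 0.887 and 1.51. The log2 fold change of day 7 against day 0 was 2.43 (1.24 to 3.88) in shMLL1, 0.59 (-0.09 to 1.29) in shControl and 0.57 (-0.16 to 1.33) in shNFIB. Over the lines the day effect was 1.10 ± 0.51 (edgeR adjusted p = 0.128).

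Msx1 (chr5:37820485-37824583) had a narrower range of CPM than Dlx1, Dlx2 and Dlx5, from 4.23 to 6.76. It had 195, 162 and 204 counts at day 0 and 166, 125 and 111 at day 7 in shControl, shNFIB and shMLL1. It did not pass 2-fold in any comparison, and its day effect was -0.33 ± 0.28 (edgeR adjusted p = 0.381). Msx2 (chr13:53466884-53473074) had 6 to 9 counts in every library, too few to compare.

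Per kilobase of exon, Dlx5 was the highest member in shControl on both days, at 5.64 and 23.2 CPM per kb. In shNFIB, Dlx2 was the highest, at 3.96 CPM per kb at day 0 and 2.57 at day 7, with Dlx5 at 1.96 and 1.63. In shMLL1, Msx1 was the highest at day 0, at 2.18 with Dlx5 at 1.79, and Dlx5 at day 7, at 7.03. The share of Dlx5 in the members' counts was 37.3%, 13.2% and 21.9% at day 0 in shControl, shNFIB and shMLL1, and 70.7%, 16.3% and 48.4% at day 7. Without Dlx5, the members' summed CPM had its lowest value, 14.4, in the shMLL1 library of day 0 and its highest, 29.2, in the shNFIB library of that day.

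**Figure D4:**
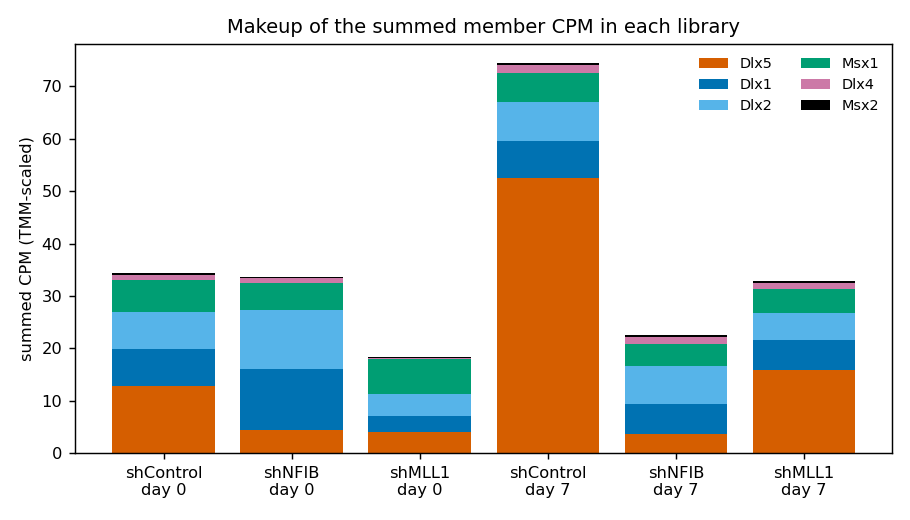
Summed CPM of the 6 members with counts in each library, stacked by member. Dlx5 made up 70.7% of the members' counts in shControl at day 7 and 16.3% in shNFIB.

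Over the 6 libraries, the genes nearest Dlx5 in centred log2 CPM were Acsm3, Shroom1 and Camsap3, at root mean square differences of 0.264, 0.401 and 0.405. Those nearest Dlx2 were Agtpbp1, Tgfbr2 and Chd3, at 0.0895, 0.0947 and 0.111. Acsm3, Shroom1 and Camsap3 were low, at 0.364 to 3.94, 0.331 to 7.68 and 0.364 to 4.26 CPM. Shared regulation with the members was not tested.

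Of the 12 genes listed as osteoblast genes downstream of Dlx and Msx factors, 9 could be compared in shControl. There, 7 were more than 2-fold higher at day 7 and 2 lower (for all genes, 23.0% and 14.9%). The median log2 fold change of the 9 was 1.83, beside -0.000713 for all genes tested. Dmp1, among the 7, had 3 counts at day 0, which is the floor, and 15 at day 7. Runx2, a master regulator of osteoblasts, had 1047, 993 and 972 counts at day 0 and 3561, 898 and 862 at day 7 in shControl, shNFIB and shMLL1. Spp1, which encodes osteopontin, had 6930, 6843 and 6771 counts at day 0 and 42101, 6682 and 7406 at day 7. Both were high in shControl at day 7 alone and close to level in the other 5 libraries. The list did not share this pattern throughout, since against shControl at day 7 each knockdown had 2 of the 9 genes compared more than 2-fold higher and 5 lower (for all genes, 8.07% and 13.2% in shNFIB, 8.59% and 6.95% in shMLL1). The 2 higher genes were Gja1 and Phex in both lines. In each line, 2 of the 5 lower genes were at or under the floor of 3 counts in the knockdown. Bglap had 3 counts in both, against 13 in shControl. Dmp1 had 0 in shNFIB against 15, and Alpl had 2 in shMLL1 against 111. Alpl, which encodes alkaline phosphatase, had 7, 8 and 0 counts at day 0 and 111, 215 and 2 at day 7. In the fit, Gja1 alone of the 6 osteoblast genes tested was called, beside 34.7% of all genes, at -1.74 ± 0.45 for day (edgeR adjusted p = 0.0262).

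That evenness was measured after the values were seen. Among 1699 genes with a mean of at least 50 counts that were more than 2-fold higher in shControl at day 7, the SD of the scaled log2 level over the other 5 libraries had a median of 0.969. It was 0.0812 for Runx2, 0.165 for Col1a1, 0.207 for Spp1 and 0.246 for Bmp4, which ranked 1, 2, 6 and 10 from the most even. Dlx5 had an SD of 1.00 and ranked 888. The cause of the evenness was not tested, and values of these 4 genes are given with that limit.

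Among the 19 BMP and Smad genes, 14 were tested in the fit and 4 were called for day, beside 34.7% of all genes. Smad1 and Smad5, which carry BMP signals to the nucleus, rose with day by 0.96 ± 0.21 and 1.82 ± 0.18 (edgeR adjusted p = 0.0142 and 0.000997). Smad4 and the BMP antagonist Grem1 fell, at -0.57 ± 0.17 and -1.91 ± 0.39 (adjusted p = 0.041 and 0.0119). For shNFIB and shMLL1, 0 of the 14 were called by edgeR, with 4 and 5 at an unadjusted edgeR p under 0.05. Of the 15741 genes, 1918 and 1416 had such a p. DESeq2 called 1 and 5 of the 14, beside 611 and 410 of all genes. In shMLL1 at day 0, where Dlx1, Dlx4 and Dlx5 were lower, 5 of the 14 genes compared (Bmpr2, Smad6, Smad9, Id2 and Id3) were more than 2-fold lower and 1, Grem1, was higher, beside 9.34% and 11.0% of all genes. Id2 had 356 counts against 2886 in shControl, and Grem1 had 13977 against 3602.

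Among the 10 partner proteins, Tle2, a Groucho-type corepressor, was the 1 called for day, beside 34.7% of all genes, at 2.14 ± 0.47 (edgeR adjusted p = 0.0147). Ndn, which encodes necdin, had 643, 2022 and 54 counts at day 0 and 302, 1176 and 42 at day 7 in shControl, shNFIB and shMLL1. Of 18 other homeobox and partner genes of the same mesenchyme, 8 were tested. Six2 alone was called for day, again beside 34.7% of all genes, and fell by 1.48 on the log2 scale (edgeR adjusted p = 0.0068). Gsc, the goosecoid homeobox gene, had 214, 52 and 43 counts at day 0 and 169, 57 and 33 at day 7, and was below shControl in both knockdowns on both days, as Dlx5 was.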

How the data were processed

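RNA-seq libraries of paired reads of 100 bases were trimmed with Trimmomatic 0.39, aligned to GRCm38 (mm10) with HISAT2 2.2.1, filtered with SAMtools 1.12 and counted per Ensembl gene with HTSeq 0.11.1, per the submitters' processing notes and methods. The table deposited by the authors holds these raw counts, with no normalization. The annotation release and strand setting are not given in the sources used here. Gene positions came from GENCODE M21. The members and gene lists were chosen with earlier results of these data known.

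CPM used TMM factors over the 6 libraries in edgeR 4.0.16 (R 4.3.3). Pairs of libraries were compared as log2 fold changes with a prior count of 0.125 and Clopper-Pearson intervals at 95%, among genes with at least 10 counts in at least 1 of the 2 libraries. No p-value was computed for them. Effects of day and line were fitted over the 6 libraries with edgeR's quasi-likelihood test after filterByExpr, with Benjamini-Hochberg adjustment and an FDR of 5%, while DESeq2 1.42.0 served as the other tool. The fit leaves 2 residual degrees of freedom, and any interaction of line with day enters the error. The line was a block, which pairs the 2 days of the same cells, and deviations of the days correlated at 0.416, 0.43 and 0.267 in shControl, shNFIB and shMLL1. Differences between responses carry normal counting intervals. Named genes were the members, their noncoding partners, coding genes within 500 kb, called genes of the fixed lists, the 3 genes nearest each member in pattern and the hairpin targets. Runx2, Spp1, Col1a1, Bmp4, Ndn and Metap1d are discussed after their values were seen. Some items that meet these rules are not reported here. The fits were tested on counts simulated with a single shared dispersion and no interaction of line with day. That setting does not cover responses that differ between lines, such as those of Dlx5. Figures were drawn with matplotlib 3.10.9.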

Additional observations from a re-analysis of the deposited data

Results flagged for a closer look

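Among the members and their noncoding partners, 4 genes had day 7 responses of opposite sign in 2 lines whose difference had a counting interval without 0. The rule was not applied to all genes, so no share over all genes stands beside this count. With 1 library for each line and day these differences were not tested. For Dlx1 the response in shMLL1 exceeded that in shNFIB by 1.90 log2 units (1.44 to 2.36) and that in shControl by 0.86 (0.40 to 1.33). Responses near 0 lie behind several of them, and their sign is not firm. The shControl response of Dlx1 was -0.004 (-0.28 to 0.27) and turned to 0.011 with DESeq2 size factors and to 0.096 with library size alone. That of Dlx2 was 0.087 (-0.19 to 0.36) and turned to -0.063 after thinning to the smallest library. The shMLL1 response of Dlx6os1 was -0.19 (-0.75 to 0.36) and turned to 0.019 with library size alone. The interval of the shNFIB response of Dlx5, -0.27 (-0.64 to 0.11), also spanned 0. For Dlx2 the shNFIB response minus that of shControl was -0.71 (-1.07 to -0.35), and the shMLL1 response exceeded that of shNFIB by 0.96 (0.53 to 1.40). For Dlx5 the shNFIB response minus that of shControl was -2.31 (-2.70 to -1.91), and the shMLL1 response exceeded that of shNFIB by 2.24 (1.78 to 2.71). For Dlx6os1 the shMLL1 response minus that of shControl was -1.13 (-2.09 to -0.17).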

How the results depend on the processing

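With 1 library a condition, depth limits the precision of single genes, and Msx2 and Dlx4 in shMLL1 at day 0 rest on under 10 counts. Over the day 7 against day 0 comparisons of shControl, shNFIB and shMLL1 in turn, the genes past 2-fold numbered 6366, 4950 and 7773. With no filter beyond 1 count they numbered 12666, 11066 and 14789. Requiring 10 counts in both libraries gave 4241 in shControl and 3275 in shNFIB, and a counting interval wholly past 2-fold gave 3904 and 2845. For shNFIB at day 0, shNFIB at day 7, shMLL1 at day 0 and shMLL1 at day 7 against shControl, the counts were 2135, 3561, 3274 and 2626. They became 7831, 9364, 9650 and 9062 with no filter beyond 1 count, and 1176, 2115, 1896 and 1377 with 10 counts in both libraries. They became 883, 1565, 1553 and 1010 with a counting interval wholly past 2-fold, and 781, 1607, 1564 and 951 in the exact test at an assumed BCV of 0.2. In the fits, 46 genes for shNFIB and 5 for shMLL1 became 611 and 410 with DESeq2, 688 and 526 with all genes of at least 1 count, and 593 and 199 with only the 4 libraries compared. The cause of these shifts was not tested. The 5462 genes called for day ranged from 2410 to 4977 when a line was left out, the lowest without shControl, and were 3999 with no replicate block. Dlx5 passed the adjusted threshold for day and for both knockdowns with all genes of at least 1 count, and for both knockdowns with only the 4 libraries compared. The day effects of Dlx1 and Dlx2, which were not called, ranged from -0.49 to 0.41 and from -0.24 to 0.21 when a line was left out, and turned in sign without shNFIB, and with RLE size factors the shMLL1 effect of Msx1 turned to 0.004. The response of Dlx1 from day 0 to day 7 in shMLL1 passed 2-fold with library size alone, at 1.07. No other direction of a member or its noncoding partners turned in the fits, and no fold past 2 turned in the comparisons of libraries.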

Other observations

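The evenness of Runx2, Col1a1, Spp1 and Bmp4 outside shControl at day 7 was also present before scaling, where they ranked 6, 2, 1 and 5 of 1699 raised genes in the SD of log2 counts over the other 5 libraries. Totals of those libraries differed by up to 1.61-fold. A raw SD below the scaled SD is common among the raised genes (96.5% of them) and marks nothing by itself. Smad5 ranked 894 after scaling. The ranks are a description made after the values were seen, and the cause was not tested.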
